A study of Mus musculus with 24 samples.

Results

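The matrix metalloproteinase (MMP) cluster of mouse chromosome 9 was described here through the ChIP-seq peaks that overlap mm9 chr9:7260000-7610000, a stretch of 350 kb tied to Mmp13, Mmp12, Mmp3, Mmp10, Mmp8 and Mmp27. The interval was chosen because an isolated H3K36me3 region near its far end was listed in both Wdr82 knockdown libraries and in neither scrambled-hairpin library. It held 234 of the 756484 peaks in 24 libraries, which is 0.0309% of them. Of these 234 peaks, 6 crossed the start of the interval and 0 crossed its end. The presence of H3K36me3 peaks in the knockdown libraries of this interval is therefore a description of how it was picked and carries no test.

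The cells were primary macrophages grown from the bone marrow of FVB/Hsd mice and taken on day 7 of differentiation, after retroviral infection and puromycin selection that all groups shared. Knockdown cells carried the hairpin sh1137 against Wdr82 (shWdr82). The control differed by antibody. It was the empty vector LMP where H3K4me3 or H3K27ac was measured. A scrambled hairpin was the control for H3K4me1 and H3K36me3, for total Pol II (RNA polymerase II in any form) and for Ser2P (the polymerase with phosphate on serine 2 of its tail repeats). Cells were untreated or received 10 ng/ml lipopolysaccharide (LPS), the bacterial cell wall component that activates macrophages, for 4 h according to the titles of the H3K4me3 and H3K27ac libraries and for 45 min according to those of the other antibodies. The protocol text of the labels gives 4 h throughout, so the LPS time of the latter 4 antibodies is uncertain and LPS differences were not compared between antibodies. Each combination of antibody, vector and treatment was 1 library. No spread between replicates could be measured, and every difference below is a difference between libraries, without a p-value. One hairpin was used, so effects of this sequence apart from Wdr82 loss cannot be told apart from the knockdown. Neither the depletion of Wdr82 nor macrophage marker genes can be read from peaks without gene positions on the build of the files, and they were not checked.

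MMPs are secreted or membrane-bound zinc endopeptidases that cut extracellular matrix and many other proteins outside the cell. Mmp13 and Mmp8 are collagenases, the latter named for its abundance in neutrophils. Mmp12 is the macrophage metalloelastase, Mmp3 and Mmp10 are the stromelysins, and Mmp27 is a less studied member. Wdr82 is a subunit of the SET1 complexes that methylate H3K4 at promoters, and of a phosphatase complex that acts on Pol II around termination. H3K4me3 marks promoters, H3K4me1 and H3K27ac mark enhancers, and H3K27ac also marks active promoters. H3K36me3 is laid down behind elongating Pol II over gene bodies, and Ser2P marks the elongating enzyme.

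In the RefSeq gene table, which is of build GRCm38.p6, the genes stand in the order Dcun1d5, the long noncoding Gm31639, Mmp13, Mmp12, Mmp1b, Mmp3, Mmp1a, Mmp10, the long noncoding Gm31751, Mmp8, Mmp27, Mmp20. The peaks are on mm9, so peaks were located by position and were not assigned to single genes. The start regions of the 6 named genes are shown because they identify the members and because AP-1, a dimer of Fos and Jun proteins, is a textbook regulator of MMP promoters. All 6 genes matched the RefSeq table, and the 120 bases before a start of each gene are given 5′ to 3′ on the strand of the gene. Capitals mark the AP-1 heptamer TGAGTCA on either strand (TGACTCA is its reverse complement) and the TATA hexamer TATAAA on the strand of the gene. The 2 motifs do not overlap where both occur.
Mmp13: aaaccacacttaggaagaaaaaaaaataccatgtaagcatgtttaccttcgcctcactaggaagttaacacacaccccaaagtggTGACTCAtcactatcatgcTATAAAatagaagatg
Mmp12: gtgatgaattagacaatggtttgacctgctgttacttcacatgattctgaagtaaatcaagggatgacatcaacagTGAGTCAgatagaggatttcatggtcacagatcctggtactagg
Mmp3: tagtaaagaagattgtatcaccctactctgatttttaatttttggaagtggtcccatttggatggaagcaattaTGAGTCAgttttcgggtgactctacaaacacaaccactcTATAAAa
Mmp10: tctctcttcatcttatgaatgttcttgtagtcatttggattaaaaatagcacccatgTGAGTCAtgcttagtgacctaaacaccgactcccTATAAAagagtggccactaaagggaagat
Mmp8: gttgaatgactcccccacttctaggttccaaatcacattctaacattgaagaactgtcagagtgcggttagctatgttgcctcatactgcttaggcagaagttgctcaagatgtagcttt
Mmp27: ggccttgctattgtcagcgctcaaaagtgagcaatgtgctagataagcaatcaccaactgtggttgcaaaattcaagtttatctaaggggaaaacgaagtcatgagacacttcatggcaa

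The AP-1 heptamer begins 35 bases before the start of Mmp13, 44 before that of Mmp12, 46 before that of Mmp3 and 63 before that of Mmp10. It was not found in the promoter windows of Mmp8 and Mmp27, which cover 250 bases before to 50 after the start. Mmp12 has 2 starts in the table. The start printed above is the one with the AP-1 heptamer, and the other start has no match to either motif. The heptamer thus occurred at 4 of the 6 genes, beside 1709 of 32851 RefSeq promoters (5.20%) and 1607 of 27025 genes (5.95%). TATAAA occurred at the same 4 genes, for Mmp12 after its start, beside 8.32% of promoters and 2641 of 27025 genes (9.77%). Of the other MMP genes looked at, Mmp1a, Mmp1b, Mmp7 and Mmp20, AP-1 letters were in the windows of 3 and TATAAA in those of 4. These matches describe letters and not binding.

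Peaks of the 6 antibodies were unequally frequent across the interval. The knockdown libraries held longer H3K36me3, H3K4me1 and total Pol II coverage than their scrambled controls in both treatments, and longer Ser2P coverage with LPS. The H3K36me3 coverage includes the region that the interval was chosen for. H3K27ac coverage was longer than in empty-vector cells without LPS (69.9 against 49.0 kb) and shorter with it (48.1 against 55.8 kb). H3K4me3, the promoter mark, was nearly absent, with 2 peaks in the untreated control, 1 in the LPS control, 0 in untreated shWdr82 and 1 in LPS-treated shWdr82 cells. Enhancer marks were frequent. H3K27ac had 10, 12, 17 and 13 peaks and H3K4me1 had 18, 14, 24 and 21, in the same order of libraries. The antibodies linked to transcription gave fewer peaks over their 4 libraries together (H3K36me3 22, total Pol II 37, Ser2P 42) than the enhancer marks (H3K27ac 52, H3K4me1 77). The lists also differed in size over the genome, with 14420 to 16744 peaks for Ser2P, 28462 to 32486 for H3K27ac and 60602 to 65149 for H3K4me1. These raw counts therefore do not rank the antibodies relative to their lists. H3K36me3 had 2 and 4 peaks in the control libraries, and 9 and 7 in the shWdr82 libraries. Total Pol II had 6 and 8 in the controls, and 7 and 16 after knockdown. Ser2P had 2 and 10 in the controls, and 6 and 24 after knockdown.

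**Figure D1:**
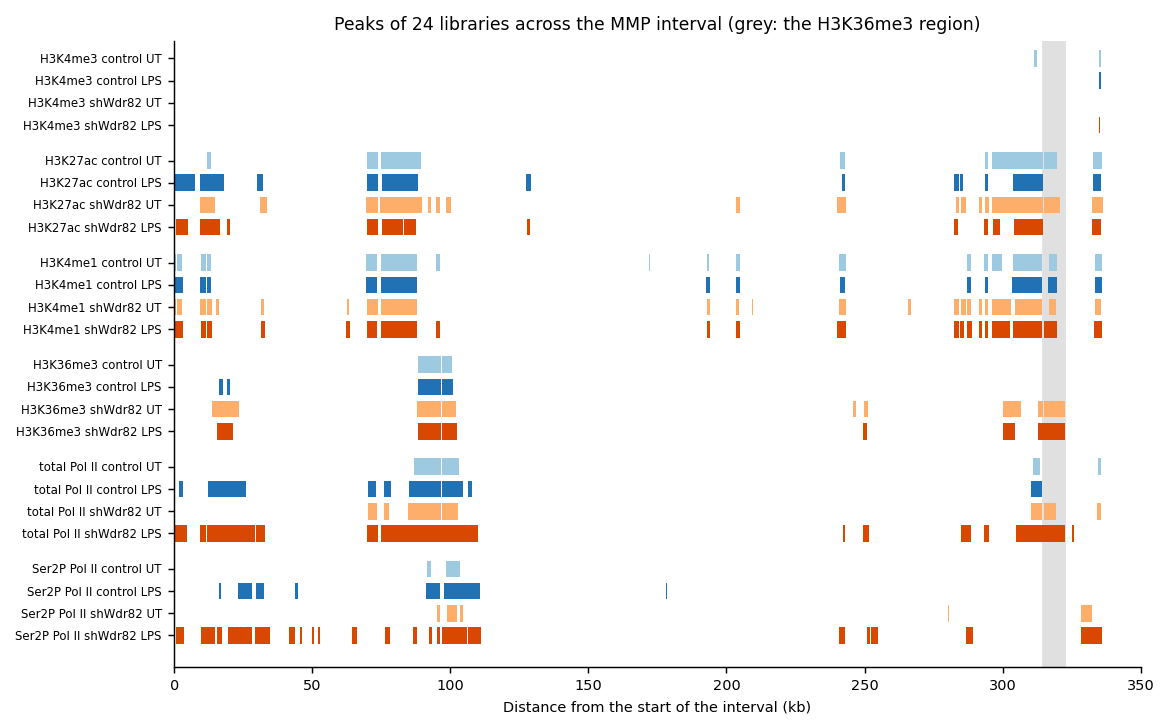
Peaks of each of the 24 libraries (rows, 1 library each) along the 350 kb interval, with the distance from its start in kb on the x axis; UT is untreated, and grey marks the isolated H3K36me3 region. Peaks gather near the start and near the end, and the grey region holds H3K36me3 and total Pol II peaks in the shWdr82 rows and in no control row.

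Covered length showed how much of the interval lay within peaks. H3K36me3 peaks covered 12.3 kb in untreated and 14.7 kb in LPS-treated scrambled cells, against 41.6 kb and 34.9 kb in the shWdr82 libraries. Total Pol II covered 19.2 kb and 45.5 kb in the scrambled libraries, against 33.1 kb and 92.3 kb after knockdown. Ser2P covered 6.3 kb and 28.5 kb in the scrambled libraries, against 9.9 kb and 65.2 kb after knockdown. For H3K36me3 and total Pol II the shWdr82 library was above its scrambled counterpart in both treatments, and for Ser2P with LPS. The shWdr82-to-scrambled ratio for H3K36me3 was 3.38 without LPS and 2.37 with it, while the same ratio over the whole genome was 0.98 and 1.06. These H3K36me3 values include the isolated region that the interval was chosen for, and without it the LPS difference fell from 5.76 to 3.62 percentage points of the interval. For total Pol II it was 1.73 and 2.03 in the interval, beside 0.95 and 1.06 over the genome. With peaks of a score of at least 100, or with equally many top-scoring peaks per list, the untreated total Pol II difference fell from 3.98 to 2.25 percentage points of the interval. The Ser2P ratio was 1.58 and 2.29, beside 0.93 and 1.36 over the genome, so the LPS-treated Ser2P shWdr82 library was also the more widely covered one genome-wide (60.6 Mb against 44.7 Mb). The part of that library-wide excess in the Ser2P difference was not tested. With peaks of a score of at least 100 alone, the untreated Ser2P difference changed sign, from 1.05 to -0.14 percentage points of the interval, so no direction is drawn from it.

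The enhancer marks had smaller ratios between vectors than H3K36me3 and total Pol II, though untreated H3K27ac differed by 20.9 kb, more than the 13.9 kb of untreated total Pol II. H3K4me1 covered 51.9 kb and 47.5 kb in the scrambled libraries and 61.9 kb and 65.0 kb in the shWdr82 libraries, ratios of 1.19 and 1.37 beside 0.95 and 0.98 over the genome. H3K27ac covered 49.0 kb and 55.8 kb in the empty-vector libraries and 69.9 kb and 48.1 kb after knockdown. Its ratio was thus above 1 without LPS (1.43) and below 1 with it (0.86), beside 1.08 and 0.90 over the genome. H3K4me3 covered 1.8 kb, 0.6 kb, 0.0 kb and 0.5 kb, too little for any comparison. Among 7547 windows of the interval's length along the genome, 0.398% gained at least as much untreated H3K27ac after knockdown. With LPS, where H3K27ac was lower, 6.92% fell at least as far. The shares for gains were 2.01% untreated and 0.596% with LPS for H3K4me1. They were 1.88% and 5.22% for H3K36me3, and 2.23% and 0.663% for total Pol II. The order by ratio was thus not the order by window share.

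**Figure D2:**
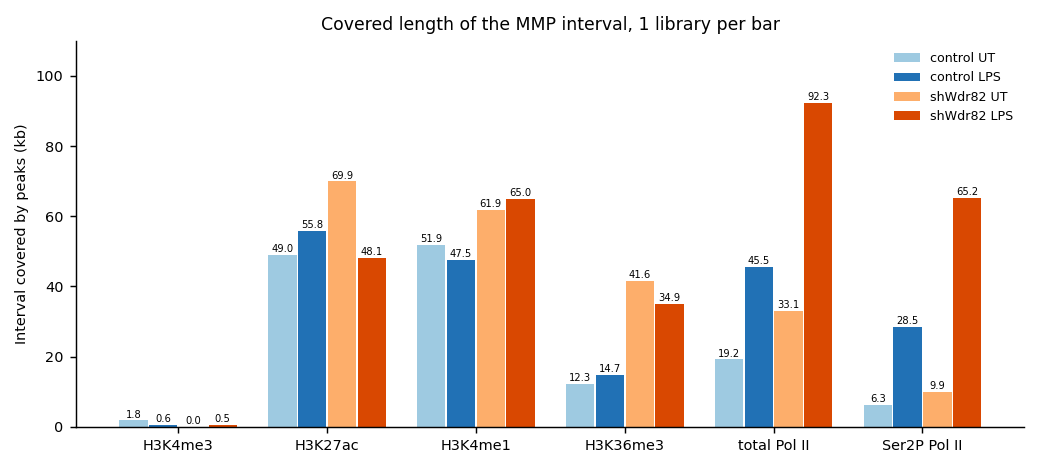
Length of the interval covered by peaks (kb, y axis) for each antibody, with 1 bar per library and no error bar because each group is 1 library. The H3K36me3 and total Pol II bars of shWdr82 stand above their controls in both treatments, the Ser2P bar of shWdr82 does so with LPS (65.2 against 28.5 kb), and the total Pol II bar of LPS-treated shWdr82 is the tallest at 92.3 kb.

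The interval was set beside the rest of the genome, which it exceeded for some antibodies and not for others. The whole genome was tiled in 7547 windows of the same length, and the median window was 0.806% to 0.885% covered by H3K27ac, against 13.7% to 20.0% of the interval. For H3K4me1 the median window was 1.87% to 2.07% covered and the interval 13.6% to 18.6%. LPS-treated shWdr82 Pol II peaks covered 26.4% of the interval, and 152 windows (2.01%) were at least as covered. That share was 24.8% in untreated scrambled, 8.86% in LPS-treated scrambled and 16.2% in untreated shWdr82 cells. Ser2P peaks of LPS-treated shWdr82 cells covered 18.6%, and 139 windows (1.84%) were at least as covered. In the other Ser2P libraries the share was 27.9%, 5.67% and 19.1%, in the same order. H3K4me3 coverage was ordinary or low, with 46.8% to 100% of windows at least as covered. H3K36me3 of the scrambled libraries was nearer the middle, with 42.3% and 40.0% of windows at least as covered. For H3K36me3 of the shWdr82 libraries the share was 29.7% untreated and 32.3% with LPS. Without the isolated H3K36me3 region, total Pol II covered 84.6 kb and H3K36me3 27.1 kb in LPS-treated shWdr82 cells, and Ser2P had no peak in that region to leave out.

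Pol II peaks covered more of the interval in the LPS libraries than in the untreated ones of both vectors. In scrambled cells the covered length after LPS was 2.37 times that of untreated cells for total Pol II and 4.55 times for Ser2P, while over the genome the ratios were 0.80 and 0.97. In shWdr82 cells the ratios were 2.79 and 6.57, beside 0.89 and 1.41 over the genome. For H3K36me3 the ratio of LPS to untreated was 1.20 in scrambled and 0.84 in shWdr82 cells, beside 0.93 and 1.00 over the genome. For H3K27ac, the ratio of LPS to untreated was 1.14 in empty-vector and 0.69 in shWdr82 cells, beside 1.17 and 0.98 over the genome. The empty-vector H3K27ac ratio was thus close to that of the genome.

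To see which regions the libraries shared, the peaks of the 4 libraries of an antibody were merged where they overlapped by at least 1 bp. This gave 98 merged regions in the interval, each classed by the libraries that held a peak in it. H3K36me3 had 9, of which 4 were in both shWdr82 libraries alone, 0 in both scrambled libraries alone and 2 in all 4 libraries. Over the genome, 4.51% of H3K36me3 merged regions were in both shWdr82 libraries alone and 2.74% in both scrambled libraries alone, and nothing is read from the count because the interval was picked on this pattern. H3K4me1 had 26 regions, with 14 in all 4 libraries, 5 in both shWdr82 libraries alone (3.29% over the genome) and 0 in both scrambled libraries alone (4.63%). Total Pol II had 17 regions, with 1 in both shWdr82 libraries alone (0.989% over the genome), 0 in both scrambled libraries alone (1.29%) and 2 in both LPS libraries alone (5.04%). Ser2P had 25 regions, with 1 in both shWdr82 libraries alone (1.43%), 0 in both scrambled libraries alone (1.30%) and 4 in both LPS libraries alone (4.32%). H3K27ac had 19 regions, with 6 in all 4 libraries, 0 in both shWdr82 libraries alone (0.386%), 0 in both empty-vector libraries alone (0.457%) and 1 in both LPS libraries alone (12.4%). H3K4me3 had 2 regions, 0 of them in both shWdr82 libraries alone (2.68%) and 0 in both empty-vector libraries alone (1.41%). Counts of 1 region are too small to be set against these shares.

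Along the interval the 234 peaks fell into 9 blocks when peaks up to 8000 bp apart were joined, a distance chosen after the data were seen. The first block (mm9 chr9:7260000-7312787, clipped at the start of the interval) held 60 peaks, the second (chr9:7322319-7371036) 62, the seventh (chr9:7500032-7514877) 16 and the ninth (chr9:7540098-7596247) 81. The other 5 blocks held 1 to 6 peaks each. Between the second and the seventh block lay 4 such small blocks. The H3K27ac peak at chr9:7387250-7389010, present in both LPS libraries alone with scores of 216 and 69, formed one of these. Scores are the deposited score of each peak, which ran from 50 to 3233 over all files. For a merged region, the score of a library is the highest among its peaks in that region. A score of 3100 recurs at the top of the lists, so peaks at 3100 cannot be ranked. Positions below were named by a rule on score for 25 merged regions, and any other position given was picked after its values were seen.

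The second block was held by most libraries. It contained the only H3K36me3 regions of all 4 libraries in the interval. The H3K36me3 region chr9:7348015-7356614 scored 3100 in untreated scrambled, 2465 in LPS-treated scrambled and 3100 in both shWdr82 libraries. Its neighbour chr9:7356905-7362449 scored 3100, 1499, 3100 and 3100 in the same order. H3K36me3 covered 12.3 kb, 12.3 kb, 13.6 kb and 13.9 kb of this block, which is a narrow range across all 4 libraries.

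Upstream in the same block lay acetylated and H3K4me1-marked chromatin that was present in every library. The H3K27ac region chr9:7334587-7349743 scored 3100 and 2529 in empty-vector cells, and 3100 and 2744 in shWdr82 cells, untreated first. The H3K27ac region chr9:7329496-7333742 scored 3100 and 831 in empty-vector cells, and 3100 and 800 in shWdr82 cells, so both LPS libraries were lower than both untreated ones. The H3K4me1 region chr9:7334643-7347995 scored 2109 and 2144 in scrambled, and 1751 and 2005 in shWdr82 cells. H3K4me1 at chr9:7329539-7333591 scored 1779, 1362, 771 and 1267, lowest in untreated shWdr82 cells.

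Pol II overlapped and extended beyond the H3K36me3 regions of the second block. Total Pol II covered 15.5 kb of the block in untreated and 26.3 kb in LPS-treated scrambled cells, and 22.9 kb and 38.9 kb in shWdr82 cells. In LPS-treated shWdr82 cells a single total Pol II peak of 33502 bp spanned chr9:7334869-7368370, where the scrambled LPS library listed separate shorter peaks, the longest of 11533 bp in that block. Maximum scores over this region were 649 and 3100 in scrambled cells and 1023 and 3100 in shWdr82 cells, high after LPS in both vectors. A smaller Pol II region, chr9:7329897-7333723, had no peak in untreated scrambled cells and scored 90 in LPS-treated scrambled, 59 in untreated shWdr82 and 794 in LPS-treated shWdr82 cells. The Ser2P region chr9:7356987-7371036 scored 1811 and 3100 in scrambled cells and 1015 and 3100 in shWdr82 cells. At Ser2P chr9:7351231-7356227 the LPS-treated scrambled library stood apart with 910, while the others scored 120, 73 and 57. Here the LPS-treated scrambled library was above the LPS-treated shWdr82 library.

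In the first block, Pol II peaks were listed in the LPS libraries of both vectors and in no untreated library. Total Pol II covered 0.0 kb untreated and 15.3 kb after LPS in scrambled cells, and 0.0 kb and 26.9 kb in shWdr82 cells. Ser2P covered 0.0 kb and 9.8 kb in scrambled cells, and 0.0 kb and 27.9 kb in shWdr82 cells. The stretch covered after LPS was longer in the shWdr82 libraries.

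The total Pol II region chr9:7271920-7289018 scored 3100 in both LPS libraries and had no peak in either untreated library. The Ser2P region chr9:7279436-7288192 scored 2296 in scrambled and 2982 in shWdr82 cells after LPS, and the adjacent chr9:7289087-7294630 scored 153 and 1432. Neither had an untreated peak. H3K27ac in this block covered 1.4 kb untreated and 18.4 kb after LPS in empty-vector cells, and 7.8 kb and 12.2 kb in shWdr82 cells. The H3K27ac region chr9:7269127-7277997 scored 159 and 3206 in empty-vector cells, and 642 and 1110 in shWdr82 cells, so LPS was higher in both vectors. H3K27ac at chr9:7249377-7267598, which reaches past the start of the interval, had no untreated empty-vector peak and scored 263 in LPS-treated empty-vector cells. The shWdr82 scores in this region, 120 untreated and 1694 with LPS, came from peaks wholly before the start of the interval. Within the interval the region held no untreated shWdr82 peak, and its LPS-treated shWdr82 peak scored 717. H3K4me1 covered somewhat more of the block in the shWdr82 libraries, with 6.1 kb and 6.2 kb in scrambled, and 8.4 kb and 7.5 kb in shWdr82 cells.

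In the first block H3K36me3 was listed in both shWdr82 libraries and, weakly, in LPS-treated scrambled cells. The region chr9:7275072-7283346 had no peak in untreated scrambled cells, a score of 81 in LPS-treated scrambled cells, 1194 in untreated shWdr82 cells and 1573 in LPS-treated shWdr82 cells. H3K36me3 was therefore listed with a high score in untreated shWdr82 cells, where neither total Pol II nor Ser2P had a peak in the block.

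**Figure D3:**
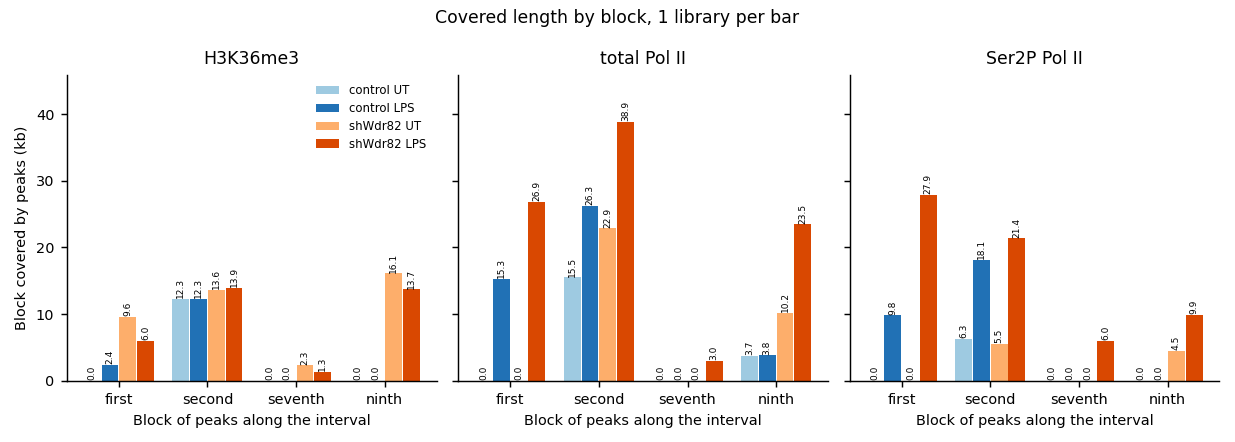
Covered length (kb, y axis) of the 4 blocks with at least 10 peaks, numbered by their order along the interval, for H3K36me3, total Pol II and Ser2P; each bar is 1 library and 0.0 means no peak. Pol II bars of the first block are at 0.0 in both untreated libraries, and H3K36me3 bars of the ninth block are at 0.0 in both scrambled libraries.

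The seventh block was short, and H3K4me1 was listed in it in all 4 libraries. The H3K4me1 region chr9:7500032-7503316 scored 919 and 982 in scrambled, and 939 and 1002 in shWdr82 cells, close to each other in all 4 libraries. H3K27ac at chr9:7500032-7503270 scored 174 and 69 in empty-vector cells, 1056 in untreated shWdr82 cells and had no peak in LPS-treated shWdr82 cells. Pol II peaks were listed in this block in the LPS-treated shWdr82 library and in no other, over 3.0 kb for total Pol II and 6.0 kb for Ser2P. The strongest of these was the Ser2P peak chr9:7512224-7513994 with a score of 205. H3K36me3 at chr9:7509609-7511103 scored 124 and 146 in the shWdr82 libraries and had no peak in the scrambled ones.

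The ninth block, which contains the isolated H3K36me3 region, held peaks of all 6 antibodies. H3K36me3 covered 0.0 kb in both scrambled libraries and 16.1 kb and 13.7 kb in the shWdr82 libraries. Total Pol II covered 3.7 kb and 3.8 kb in scrambled cells, and 10.2 kb and 23.5 kb in shWdr82 cells. Ser2P covered 0.0 kb in both scrambled libraries, and 4.5 kb and 9.9 kb in shWdr82 cells. H3K4me1 covered 22.2 kb and 19.5 kb in scrambled cells, and 29.1 kb and 32.3 kb in shWdr82 cells. For total Pol II, Ser2P and H3K4me1, whose control was the scrambled hairpin, both shWdr82 libraries lay above both scrambled ones. The same order for H3K36me3 follows from how the interval was picked and is not counted with them. The isolated region held 4300 bp of the total Pol II length in untreated and 7726 bp in LPS-treated shWdr82 cells. H3K27ac, with the empty-vector control, differed by treatment: 27.5 kb and 34.0 kb untreated, in empty-vector and shWdr82 cells, and 17.6 kb and 18.9 kb after LPS.

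The isolated region itself ran over mm9 chr9:7574834-7582795, 7962 bp. It was listed in untreated shWdr82 cells at chr9:7574917-7582795 and in LPS-treated shWdr82 cells at chr9:7574834-7582629, both with a score of 3100. No scrambled H3K36me3 peak lay within 183814 bp of it, and the nearest was to its right, outside the interval. The peaks of both shWdr82 libraries had nearly the same bounds, covering 99.0% and 97.9% of the merged region. Beside it lay weaker H3K36me3 regions of both shWdr82 libraries alone, with scores of 147 and 252 at chr9:7572953-7574741 and of 206 and 174 at chr9:7560223-7566787.

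Other antibodies had peaks at the same place to differing extents. Total Pol II had no scrambled peak in the region and covered 54.0% of it in untreated and 97.0% in LPS-treated shWdr82 cells, with low scores of 75.9 and 78.2. With peaks of a score of at least 100, or with lists trimmed to an equal number of top-scoring peaks, no total Pol II region of both shWdr82 libraries alone was left in the interval. Merging peaks up to 1000 bp apart likewise left 0, because the region then joined a neighbour held by all 4 libraries. The H3K36me3 region stayed in both shWdr82 libraries alone under each of these settings. The neighbouring total Pol II region, chr9:7564969-7574498, was in all 4 libraries, with scores of 287 and 331 in scrambled cells, and 582 and 2028 in shWdr82 cells.

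H3K4me1 was present at the isolated region in all 4 libraries, covering 38.4% and 39.3% of it in scrambled cells, and 31.9% and 59.6% in shWdr82 cells. The overlapping H3K4me1 region chr9:7575060-7579825 scored 788 and 922 in scrambled and 447 and 633 in shWdr82 cells, higher in both scrambled libraries. H3K27ac was listed there without LPS and not with it: it covered 58.6% in untreated empty-vector and 73.0% in untreated shWdr82 cells, and 0% in both LPS libraries. Its untreated scores at chr9:7574958-7580789 were 354 and 593. Neither Ser2P nor H3K4me3 had a peak in the region in any library. The nearest Ser2P peak was 5689 bp away in untreated and 5650 bp away in LPS-treated shWdr82 cells, and 106614 bp and 136374 bp away in scrambled cells. Enhancer-type marks were thus listed in control cells where H3K36me3 was not.

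**Figure D4:**
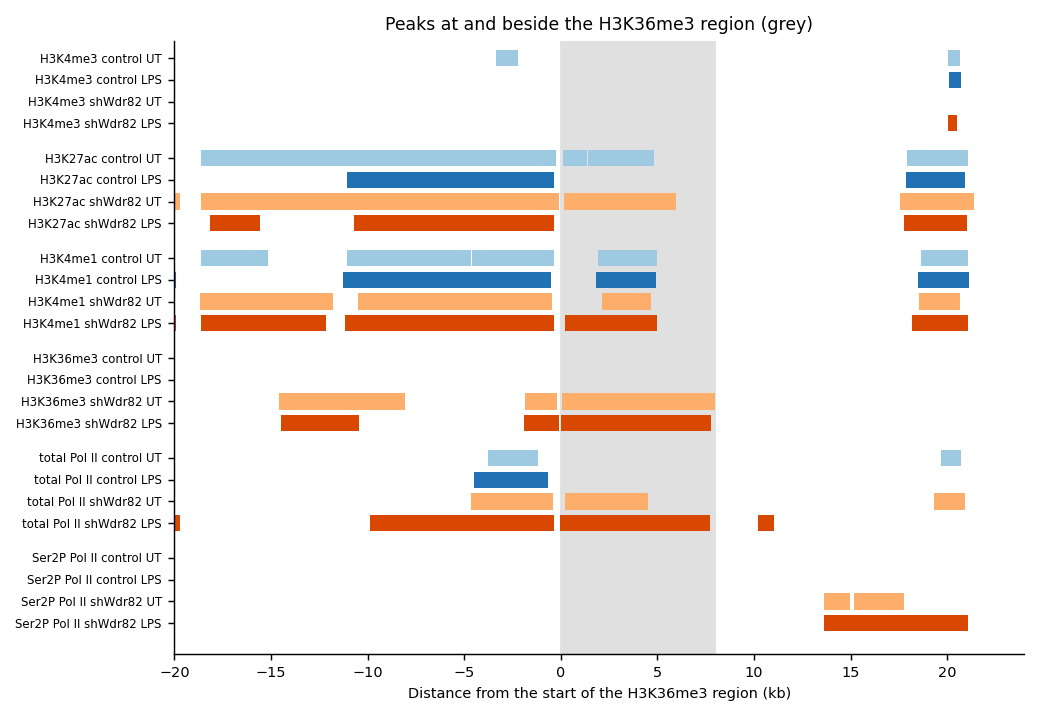
Peaks of the 24 libraries (rows, 1 library each) around the isolated H3K36me3 region (grey, 7962 bp), with the distance from its start in kb on the x axis. H3K36me3 peaks span nearly all of the grey region in both shWdr82 rows, total Pol II peaks cover 54.0% of it in the untreated and 97.0% in the LPS-treated shWdr82 row, H3K4me1 peaks lie in it in all 4 rows, and Ser2P and H3K4me3 peaks lie outside it.

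The left neighbour of the isolated region was the main acetylated stretch of the block. H3K27ac at chr9:7556198-7574764 scored 3100 and 1900 in empty-vector cells, and 3100 and 2810 in shWdr82 cells. H3K4me1 at chr9:7563538-7574482 scored 1284 and 174 in scrambled cells, and 2103 and 2332 in shWdr82 cells, lowest in the LPS-treated scrambled library. In length, that low-scoring peak of 10813 bp was close to the LPS-treated shWdr82 peak of 10818 bp. Further left, H3K27ac at chr9:7553419-7555118 scored 179 and 98 in empty-vector cells, and 1168 and 141 in shWdr82 cells, highest in the untreated shWdr82 library. H3K4me1 regions of both shWdr82 libraries alone lay at chr9:7542281-7544252 (268 and 192), chr9:7544764-7545945 (197 and 205) and chr9:7551325-7552597 (103 and 176). The other 2 such H3K4me1 regions, chr9:7291221-7292717 (95 and 66) and chr9:7322319-7323435 (130 and 54), lay in the first and the second block. The median H3K4me1 score in the interval was 237.6 in untreated and 211.1 in LPS-treated shWdr82 cells. Among the scores of these 5 regions, that of 268 was above the median of its library and the others were below.

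To the right, near the end of the block, H3K27ac at chr9:7592392-7596247 scored 1581 and 903 in empty-vector cells, and 3100 and 994 in shWdr82 cells. The H3K4me3 region within it, chr9:7594870-7595564, scored 179 and 117 in empty-vector cells, had no peak in untreated shWdr82 cells and scored 56 in LPS-treated shWdr82 cells. The other H3K4me3 peak of the interval, at chr9:7571484-7572634, was listed in untreated empty-vector cells alone with a score of 98. Ser2P at chr9:7588446-7595894 was in both shWdr82 libraries alone with scores of 198 and 791, and the nearest scrambled Ser2P peak was 93515 bp away without and 149986 bp away with LPS. Total Pol II overlapped the end of it at chr9:7594136-7595767 in both untreated libraries, with scores of 79 in scrambled and 105 in shWdr82 cells, and in neither LPS library.

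Set beside the genome, the isolated region combined a high score with a long distance from scrambled peaks. There were 1552 H3K36me3 regions in both shWdr82 libraries alone. Their median distance to a scrambled peak was 4499 bp, and 43 of them (2.77%) were at least as far as the MMP region. The median of the lower of the 2 shWdr82 scores was 87, and 5 regions reached that of the MMP region. One region, the MMP region itself, met both limits. Their median width was 2528 bp, and 111 (7.15%) were at least as wide. These values chose the interval and are given without a test.

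**Figure D5:**
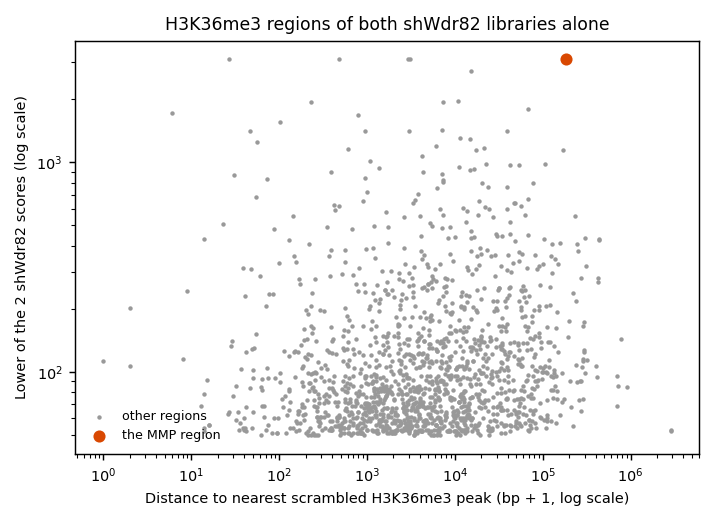
Each point is 1 of the 1552 H3K36me3 regions listed in both shWdr82 libraries alone, with its distance to the nearest scrambled H3K36me3 peak (bp plus 1, log scale) on the x axis and the lower of its 2 shWdr82 scores (log scale) on the y axis. The MMP region (large point) is 183814 bp from a scrambled peak with a lower score of 3100, at the upper right.

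The pairing of H3K36me3 and total Pol II at the region was uncommon elsewhere. Of the 1552 regions, 21 (1.35%), the MMP region among them, were overlapped by total Pol II peaks of both shWdr82 libraries and of neither scrambled library. The same held for 176 of all 34434 H3K36me3 regions (0.511%). Scrambled peaks that joined the same merged total Pol II region outside the H3K36me3 region were not considered. The mirror case, regions of both scrambled libraries alone with total Pol II peaks of these libraries alone, was 5 of 942 (0.531%). The crossed case was 8 of the 1552 (0.515%) with total Pol II peaks of both scrambled libraries alone. Of the 942, 0 had total Pol II peaks of both shWdr82 libraries alone. For Ser2P the counts were 20 of the 1552 (1.29%) and 133 of the 34434 (0.386%), and the MMP region was not among the 20.

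Beyond the interval, all 4 H3K36me3 libraries had peaks on both sides, so the signal was listed again in scrambled cells. The nearest peak to the right of the interval was 156609 bp and 156769 bp from its end in scrambled cells, and 156781 bp and 157158 bp in shWdr82 cells, with scores of 2260, 1362, 1852 and 1788. To the left the nearest was 46203 bp and 41973 bp from the start in scrambled cells, and 39543 bp and 39647 bp in shWdr82 cells. On the right, the difference between vectors seen in the ninth block was not present in whether a peak was listed. On the left, the nearest shWdr82 peaks were chr9:7218443-7220456 untreated (score 143) and chr9:7218292-7220352 with LPS (141). The nearest scrambled peaks, chr9:7201840-7213796 untreated (3100) and chr9:7216915-7218026 with LPS (56), ended before them. This left region was therefore listed in both shWdr82 libraries alone, with low scores.

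Peak presence rests on the threshold of the peak caller and on sequencing depth, which the sources used here do not give, and a library without a peak may still hold reads. Whether libraries of different antibodies came from the same infected cultures is not given in the labels.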

How the data were processed

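ChIP-seq peak lists of 24 libraries were analysed, 1 for each antibody, vector and treatment. Per the submitters' processing notes, Bowtie 0.12.7, MACS 1.4 and the mm9 build were used. The files deposited by the authors give peak positions and 1 score per peak. How the score is scaled, the threshold, the input control and read depth are not stated in those sources, and values therefore carry no interval for counting error.

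Groups were taken from the labels. Using Python 3.11.15 (figures: matplotlib 3.10.9), peaks overlapping the interval by at least 1 bp were kept, covered lengths were cut to it, and peaks of the 4 libraries of an antibody were merged where they overlapped. The interval code was tested on simulated peaks. Regions were named by a written rule: of 98 merged regions, 82 met it through 2 or more antibodies, both libraries of a vector or both of a treatment, and the 25 with the highest score were named. With 1 library per group no test was run. Alternatives were a score of at least 100, equally many top-scoring peaks, merging up to 1000 bp and a 20% cover rule. The interval without the isolated H3K36me3 region was added after seeing the data. The interval, its genes and the lists were chosen with earlier results of these data known. RefSeq tables of GRCm38.p6 served for gene order and promoter sequences alone.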

Additional observations from a re-analysis of the deposited data

How the results depend on the processing

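The H3K36me3 region of both shWdr82 libraries alone kept its class under all 4 settings tried on it, and the H3K36me3 count of 4 such regions ranged from 3 to 5. The total Pol II count of 1 became 0 with a score of at least 100, 0 with equally many top-scoring peaks per list and 0 with peaks up to 1000 bp apart merged. It was 1 where a library had to cover 20% of a region. For the covered share (shWdr82 minus control, percentage points), a score of at least 100 moved H3K4me3 from -0.51 to -0.18 untreated and from -0.04 to -0.18 with LPS, total Pol II untreated from 3.98 to 2.25, Ser2P with LPS from 10.49 to 6.46, and reversed Ser2P untreated from 1.05 to -0.14. Equally many top-scoring peaks per list moved H3K4me3 with LPS to -0.18, total Pol II untreated to 2.25 and Ser2P untreated to 0.32. Leaving out the isolated region, an alternative added after seeing the data, moved H3K36me3 with LPS from 5.76 to 3.62. Peaks with a score of at least 100 numbered 2 of 4 for H3K4me3 and 21 of 42 for Ser2P. The causes of these shifts beyond the smaller number of peaks were not tested. Other values changed by less than 1.5 times under these settings. No paired analysis was possible because each group was 1 library. Unknown depth limits every statement that a peak was not listed.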
